A study of Mus musculus with 48 samples.

Results

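The core autophagy machinery and its cargo receptors were examined at the RNA level across 16 conditions of mouse striatal progenitor cells. The 37 genes were chosen by name for their known role in building the autophagosome or in loading it, out of 27281 genes in the RNA-Seq table. They comprised 5 initiation genes, 6 nucleation genes, 5 membrane supply genes, 10 conjugation genes, 5 ATG8 proteins and 6 receptors. All 37 were among the 13409 genes abundant enough to be tested, so no member was set aside as too low.

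RNA-Seq was performed on 48 samples, 3 per condition, of the STHdh lines, which are conditionally immortalized striatal progenitor cells labelled C57BL/6. STHdhQ7 cells are wild type, and STHdhQ111 cells carry a polyglutamine-expanded huntingtin knock-in on both alleles. Each genotype was a single cell line, so a difference of genotype and a difference of line cannot be told apart. Cells were kept in serum-free medium for 24 h with the DMSO vehicle or a compound, conditions under which STHdhQ111 cells die, and the compounds had been selected for protecting them. The vehicle control was sampled in both lines, and 14 compounds were given to STHdhQ111 cells. Group A was cyproheptadine at 10 µM, loxapine at 10 µM and pizotifen at 5 µM. Group B was diacylglycerol kinase inhibitor II (DKI) at 10 µM and meclizine at 10 µM. The study separated these groups by their metabolite profiles. The other compounds were sodium butyrate at 1 mM, 4-deoxypyridoxine (DOP) at 4 mM, cysteamine at 250 µM, selisistat at 10 µM, fingolimod phosphate at 250 nM, trichostatin A at 10 nM, nortriptyline at 1 nM, and nicotinamide and haloperidol at 0.5 nM. The labels give the 3 replicates of a condition different collection slots but do not say that they were separate cultures, so the p-values measure only the spread between these samples, which may be technical.

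Macroautophagy encloses cytoplasm in a double membrane, the autophagosome, and delivers it to lysosomes. The ULK1 complex starts the process, the class III phosphatidylinositol 3-kinase complex marks the growing membrane with lipid, and ubiquitin-like conjugation attaches ATG8 proteins to it, where they dock receptors that carry cargo. In striatal neurons autophagy is known for clearing aggregate-prone proteins such as mutant huntingtin. RNA levels do not measure autophagic flux, and no flux measurement was analysed here.

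The deposited values are normalized abundances on a log2 scale, and the read depth behind them is unknown because no counts were used. The spread within conditions was smallest for genes with a mean under 0, with a median SD of 0.00483. It was 0.0379 at a mean of 0 to 1, 0.0612 at 1 to 3, 0.103 at 3 to 6 and 0.0832 at 6 or more. Differences and folds of low genes may be understated on this scale. The values are not scaled by transcript length, so each member was compared only with itself across samples. Sums over marker lists and the most abundant gene of a list are given in these unscaled units, where long genes weigh more, and are meant only for comparing the same list between lines. Differences were tested with limma on all genes with the collection day in the model, p-values were adjusted by Benjamini-Hochberg over the 13409 genes, and a gene is said to be higher, lower, risen or fallen only at an adjusted p under 0.05. In bulk RNA, fewer cells of a type and less RNA per cell cannot be told apart.

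The progenitor label was checked against marker genes. Of 6 neural progenitor markers, Vim, an intermediate filament gene, had a mean log2 value of 15.60 in STHdhQ7 and 15.42 in STHdhQ111 vehicle cells. Nes (nestin) was at 10.95 in STHdhQ7 cells and only 4.96 in STHdhQ111 cells, and Sox2 was at 8.91 and 4.81. Fabp7, at 0.77 and 0.67, was near the floor in both lines. The neural progenitor markers that define the label were thus low in STHdhQ111 cells and high in STHdhQ7 cells. The summed linear level of the list, with Vim as its most abundant gene, had a median of 53500 in STHdhQ7 samples (48900 to 54500) and 42800 in STHdhQ111 samples (42700 to 46700).

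Markers of other cell types were uneven. Of 8 striatal neuron markers, 7 were in the table and 5 had a mean under 1 in STHdhQ111 cells, among them Drd1 at -2.18, Gad1 at -1.15 and Bcl11b at 0.18. Foxp1 was the most abundant of that list, and its sum had a median of 651 in STHdhQ7 cells (486 to 678) and 1020 in STHdhQ111 cells (959 to 1100). Of 5 neuron markers, 3 were under 1, Rbfox3 being at -2.13, and the list had a median sum of 552 (278 to 588) and 370 (303 to 429). Rbfox3, Snap25 and Syt1 were thus near the floor in both lines, while Map2, the most abundant, and Tubb3, at 5.72 and 4.52, were not. Of 6 mesenchymal markers, 5 were above 1, with Col1a1 most abundant at 14.65 and 14.63, and the list summed to a median of 38900 (27800 to 39500) and 42000 (38500 to 43800). Of 5 microglia markers, 3 including P2ry12 were under 1, while Ptprc was at 7.86 and 10.59, and the median sum was 241 (169 to 327) and 1500 (1420 to 1720). Astrocyte markers, 3 of 4 in the table, summed to a median of 10.2 (9.79 to 11) and 9.25 (9.25 to 9.66), with Aldh1l1 most abundant and Gfap near the floor. Drd2 and Aqp4 were not analysed here.

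Promoter sequences of 3 members are shown, those of Sqstm1 and Gabarapl1 because they rose most with Group B, and that of Atg3 because it holds a searched motif. Atg3 was picked after the motif search, and Atg12, Atg10, Wipi2 and Atg5 rose more than it with Group B. RefSeq windows on GRCm38.p6 were matched for 31 of the 37 genes, with 38 start sites. Each run gives the 200 bases from 250 to 51 bases before the start, 5′ to 3′ on the gene's strand, with CACGTG in capitals. Sqstm1 lies on the minus strand at chr11:50210871-50211070, Gabarapl1 on the plus strand at chr6:129532942-129533141, and Atg3 on the plus strand at chr16:45158579-45158778.
Sqstm1: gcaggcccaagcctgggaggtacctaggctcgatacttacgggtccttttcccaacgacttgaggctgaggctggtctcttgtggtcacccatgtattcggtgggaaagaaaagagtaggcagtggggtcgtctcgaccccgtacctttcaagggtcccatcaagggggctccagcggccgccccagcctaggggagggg
Gabarapl1: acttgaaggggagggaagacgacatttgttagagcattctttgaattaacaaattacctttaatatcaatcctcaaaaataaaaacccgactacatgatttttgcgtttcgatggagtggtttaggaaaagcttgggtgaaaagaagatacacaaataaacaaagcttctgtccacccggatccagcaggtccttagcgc
Atg3: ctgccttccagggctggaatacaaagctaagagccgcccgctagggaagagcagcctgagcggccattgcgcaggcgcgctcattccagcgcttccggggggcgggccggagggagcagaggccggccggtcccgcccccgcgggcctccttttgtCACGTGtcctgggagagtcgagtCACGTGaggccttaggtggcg
The E-box core CACGTG, which reads the same on both strands, was present in the Atg3 window at 94 and 71 bases before the start and was in neither of the other windows. Over the same window it was present in 1425 of 32851 RefSeq windows (4.34%) and in 3 of the 38 member windows (7.89%), those of Atg3, Atg7 and Fam134b. The composite ATF4 site TGATGNAA, searched on both strands, was in 892 windows (2.72%) and in 0 member windows. Of 5 motifs searched, the others were a 10-base extended E-box in 0.119% of windows and 0 member windows, an AP-1 site, TGANTCA, in 5.57% and 0 member windows, and the antioxidant response core TGANNNNGC, in 28.9% and in 15 member windows (39.5%). The window was shortened after a first search. With all 250 bases before the start the E-box was in 6.02% of windows and 4 member windows (10.5%), Atg5 being added. The whole reference sequence, which runs past the start, had it in 7.15% and 5 member windows (13.2%), with Atg14 added. No test of these shares was made. These are matches of letters, and binding was not measured.

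Wild-type and mutant lines were compared to ask how the machinery differs with the huntingtin genotype. Of the 37 members, 29 differed between STHdhQ7 and STHdhQ111 vehicle cells, against 55.8% of all genes tested. In this comparison 20 members were lower in STHdhQ7 cells, where 26.6% of all genes were, and 9 were higher, where 29.2% of all genes were. The median log2 difference was -0.216 over members and 0.00398 over all genes. ATG8 genes and receptors were mostly lower in wild-type cells, whereas Rb1cc1 was higher.

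Gabarapl1 encodes an ATG8 protein of the GABARAP subfamily and lies on chromosome 6 at 129533160 to 129542346 of GRCm38, plus strand. Its log2 values were 9.14, 9.32 and 9.35 in STHdhQ7 cells and 10.17, 10.20 and 10.24 in STHdhQ111 vehicle cells. All STHdhQ7 samples were below all STHdhQ111 samples. The difference was -0.94 (SE 0.0664, 95% interval -1.07 to -0.80, limma adjusted p = 3.92e-15), a level 1.91-fold lower in wild-type cells. Gm44243 on the same strand and 1700101I11Rik on the other overlap this gene, and the strand setting used in counting is not stated, so reads shared with them cannot be separated.

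Atg12 encodes the ubiquitin-like protein that is joined to ATG5. Its log2 values were 7.96, 8.04 and 7.86 in STHdhQ7 cells and 8.60, 8.63 and 8.66 in STHdhQ111 cells, so the lines did not overlap. It was lower in STHdhQ7 cells by a log2 difference of -0.68 (SE 0.0594, limma adjusted p = 1.62e-12). Rb1cc1 encodes FIP200, the scaffold of the ULK1 complex, and lies on chromosome 1 at 6206197 to 6276648, with 4732440D04Rik on the other strand. Its values were 10.83, 11.08 and 11.01 in STHdhQ7 cells and 10.48, 10.38 and 10.24 in STHdhQ111 cells. Here each wild-type sample was above each mutant sample, with a difference of 0.61 (SE 0.0825, limma adjusted p = 5.69e-08), or 1.52-fold.

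Among the initiation genes all 5 differed. The kinases Ulk1 (-0.28) and Ulk2 (-0.36) and the adaptor Atg13 (-0.26) were lower in STHdhQ7 cells, and the ATG13 partner Atg101 was higher (0.25, limma adjusted p = 0.0337). In nucleation 5 of 6 differed. Becn1 (-0.27), the lipid kinase Pik3c3 (-0.22), the targeting subunit Atg14 (-0.26) and its alternative Uvrag (-0.41) were lower, the regulatory subunit Pik3r4 was higher (0.22), and the regulator Ambra1 had a difference of 0.11 that did not pass (limma adjusted p = 0.0644). In membrane supply 4 of 5 differed. The phosphoinositide-binding Wipi1 was lower (-0.59), with log2 values of 8.41, 8.58 and 8.57 against 9.10, 9.08 and 9.13. The lipid transfer gene Atg2a was lower (-0.16, limma adjusted p = 0.0352), its paralogue Atg2b (0.29) and the scramblase Atg9a (0.27) were higher, and Wipi2 had a difference of 0.06 that did not pass.

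In conjugation 5 of 10 differed. Besides Atg12, the E2-like enzyme Atg10 (-0.41) and the protease Atg4a (-0.31) were lower, while the E2-like enzyme Atg3 (0.21) and the protease Atg4d (0.26) were higher. The other 5 did not pass, with differences from -0.12 for the protease Atg4c to 0.12 for Atg16l1, the partner of ATG12-ATG5. Between them lay the ATG12 acceptor Atg5 at -0.07, the protease Atg4b at 0.02 and the E1-like enzyme Atg7 at 0.08. Reads of Atg4a may be shared with the pseudogene Atg4a-ps.

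Of the 5 ATG8 genes, 4 were lower and none was higher in STHdhQ7 cells. Map1lc3b encodes LC3B, the ATG8 protein most used as an autophagosome marker, and lies on chromosome 8 at 121590361 to 121598760, overlapped by Gm20388 on the same strand and Zcchc14 on the other. Its log2 values were 10.44, 10.63 and 10.57 in STHdhQ7 cells and 10.80, 10.90 and 11.00 in STHdhQ111 cells, with no overlap between lines. The difference was -0.35 (SE 0.0535, limma adjusted p = 5.30e-07). Gabarapl2 was also lower (-0.60), with values of 9.49, 9.70 and 9.77 against 10.16, 10.25 and 10.35, and so was Gabarap (-0.22). Map1lc3a, at -0.11, did not pass.

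All 6 receptors differed. Sqstm1 encodes p62, which binds ubiquitinated cargo and ATG8 proteins, and lies on chromosome 11 at 50199366 to 50210827, minus strand, with Mrnip on the other strand. Its log2 values were 12.98, 12.98 and 13.04 in STHdhQ7 cells and 12.75, 12.69 and 12.77 in STHdhQ111 cells. The wild-type samples were higher without overlap, by 0.26 (SE 0.0918, limma adjusted p = 0.0143). Fam134b, an endoplasmic reticulum receptor listed as Retreg1 in the annotation, was at 10.69, 10.67 and 10.61 against 10.43, 10.49 and 10.49, a difference of 0.19 (limma adjusted p = 0.0135). The ubiquitin-binding receptors Nbr1 (-0.22), Optn (-0.29) and Tax1bp1 (-0.28) and the related coiled-coil gene Calcoco1 (-0.35) were lower.

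With each of the 6 vehicle libraries left out in turn, 25 of the 29 calls were kept. The call of Sqstm1 was lost without STHdhQ111 replicate 2 (0.24) and that of Fam134b without STHdhQ111 replicate 1 (0.16). Atg2a lost its call without STHdhQ7 replicate 1 (-0.16) or replicate 2 (-0.13) and without STHdhQ111 replicate 1 (-0.14) or replicate 3 (-0.17). Atg101 lost it without STHdhQ7 replicate 1 (0.16) or replicate 3 (0.26) and without STHdhQ111 replicate 1 (0.21) or replicate 2 (0.18). Atg2a, Atg101 and Pik3r4 also lost theirs when only the compared samples entered the fit. Between the lines the tested neural progenitor markers, 4 of 4, were higher in STHdhQ7 cells, by 5.99 for Nes and 4.10 for Sox2. Among mesenchymal markers 1 of 5 tested was lower, Col1a2 at -2.69, and Ptprc was lower at -2.73. In other lists reported here Foxp1 was lower (-0.78), Tubb3 was higher (1.19), and 1 of 2 tested astrocyte markers differed. The part of these markers in the members' differences was not tested. Calcoco1 kept its call but moved to -0.23 without STHdhQ7 replicate 1. That library stood apart from its condition, with a root mean square deviation of 0.208 against 0.152 and 0.14 for STHdhQ7 replicates 2 and 3.

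**Figure D1:**
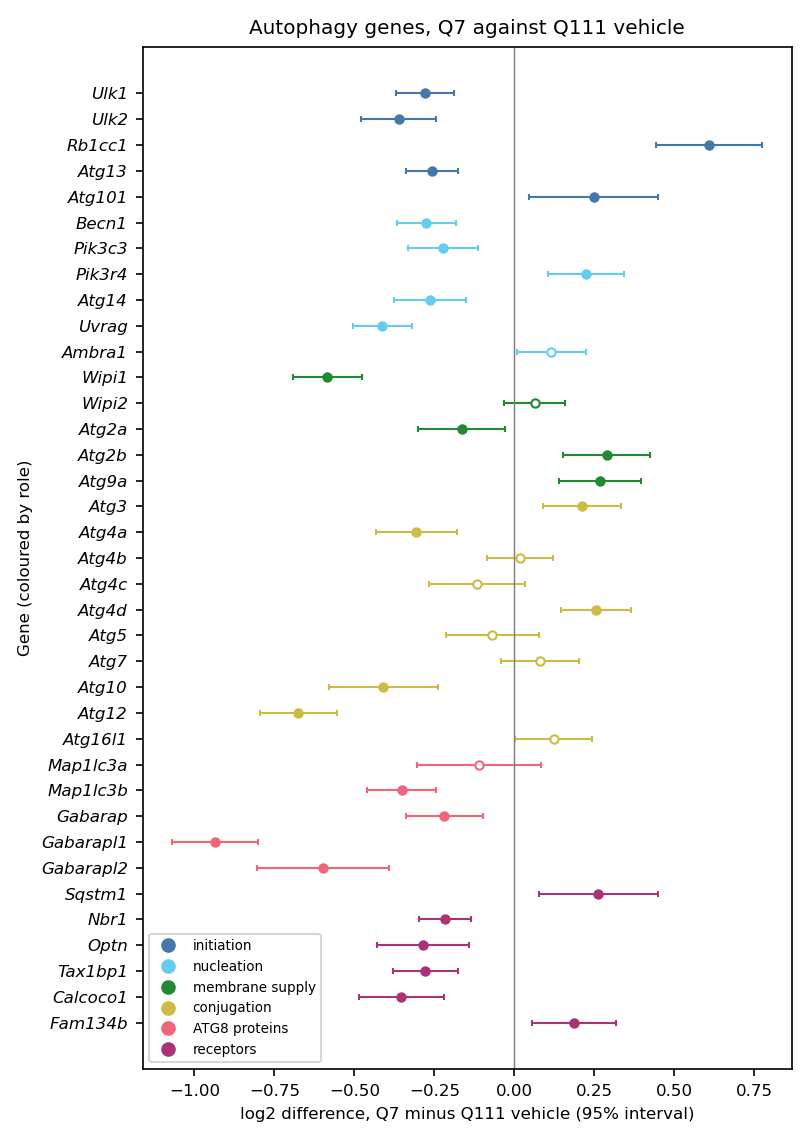
Log2 difference between STHdhQ7 and STHdhQ111 vehicle cells for each of the 37 members, coloured by role, with 95% intervals from limma and open points where the adjusted p was 0.05 or more. Gabarapl1, at -0.94, and Atg12, at -0.68, lie farthest on the lower side, and Rb1cc1, at 0.61, lies farthest on the higher side.

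Groups A and B were compared with the STHdhQ111 vehicle control to ask which steps of the machinery protective compounds moved. Both groups, and each of their compounds, share the same 3 vehicle samples. A group difference is the mean over the compounds of the group. Its SE and p-value measure the spread between replicates of a condition, not the spread between compounds. Of the 37 members, 15 differed with Group A, against 32.8% of all genes tested. Here 8 were higher and 7 lower, where 15.6% and 17.2% of all genes were. The median difference was 0.0153 over members and 0.00138 over all genes. With Group A the receptors Fam134b, Sqstm1 and Optn and the ATG8 gene Gabarapl1 were higher, and the ULK kinases, Atg14 and Atg2a were lower.

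Fam134b, which directs fragments of the endoplasmic reticulum into autophagosomes, is on chromosome 15 at 25843180 to 25973687, plus strand, with Mir7212 inside it. Its log2 values were 11.06, 10.83 and 10.81 with cyproheptadine, 10.90, 10.72 and 10.80 with loxapine, and 11.02, 10.83 and 10.91 with pizotifen. Vehicle samples were at 10.43, 10.49 and 10.49, below all 9 Group A samples. The Group A difference was 0.40 (SE 0.0528, limma adjusted p = 2.14e-07), 1.32-fold. Values with Group B were 10.49 at the lowest, 10.63 at the median and 10.68 at the highest, and its difference of 0.13 did not pass (limma adjusted p = 0.0670).

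Sqstm1 had log2 values of 13.14, 13.15 and 13.27 with cyproheptadine, 12.95, 12.85 and 12.84 with loxapine, and 13.06, 13.03 and 12.96 with pizotifen. All 9 were above the vehicle samples, whose highest value was 12.77. The Group A difference was 0.29 (SE 0.0751, limma adjusted p = 0.00256). By compound it was 0.45 for cyproheptadine and 0.28 for pizotifen, while loxapine at 0.14 did not pass (limma adjusted p = 0.284). Atg2a, which moves lipid into the growing membrane and lies on chromosome 19 at 6241668 to 6262335, plus strand, had values of 9.12 to 9.41 with Group A (median 9.33) and 9.66, 9.58 and 9.58 with vehicle. Every Group A sample was below every vehicle sample, with a difference of -0.28 (SE 0.0548, limma adjusted p = 1.02e-04).

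By role, Group A moved 3 of 5 initiation genes, with Ulk1 (-0.21, limma adjusted p = 1.75e-05) and Ulk2 (-0.25) lower and Atg101 higher (0.21). Ulk1 samples ranged from 9.10 to 9.29 (median 9.18) with Group A and were 9.45, 9.41 and 9.33 with vehicle, without overlap. In nucleation 3 of 6 were lower, namely Pik3c3 (-0.19), Atg14 (-0.19) and Ambra1 (-0.14). In membrane supply 2 of 5 moved, with Wipi2 (0.16) higher beside the lower Atg2a. In conjugation 2 of 10 were higher, Atg3 (0.15) and Atg12 (0.15), and Atg5 at 0.14 did not pass (limma adjusted p = 0.0569). Among ATG8 genes Gabarapl1 alone rose, by 0.23 (SE 0.0543, limma adjusted p = 0.00128), from vehicle values of 10.17 to 10.24 to Group A values of 10.33 to 10.56 (median 10.42). Map1lc3b did not differ detectably, at -0.01 (95% interval -0.10 to 0.07), with Group A values of 10.80 to 10.95 (median 10.91) overlapping the vehicle range of 10.80 to 11.00. Of the receptors 4 of 6 moved, with Optn (0.20) higher and Calcoco1 (-0.24) lower in addition to Fam134b and Sqstm1.

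In Group A the 11 calls outside Ambra1, Atg3, Atg12 and Atg101 were kept without each of 12 libraries. Ambra1 lost its call without vehicle replicate 2 (-0.12). Atg3 lost it without vehicle replicate 1 (0.14) or replicate 3 (0.15), and Atg12 without vehicle replicate 1 (0.13) or replicate 2 (0.15). Atg101 lost it without vehicle replicate 1 (0.17) or 2 (0.14), any pizotifen replicate (0.20 to 0.21), loxapine replicate 1 or 2 (0.20) or cyproheptadine replicate 3 (0.18), and also with no minimum level, with collection time added or with no variance trend. Called in the same direction for each compound of Group A were 7 members, with Gabarapl1 and Fam134b higher and Ulk1, Ulk2, Pik3c3, Atg14 and Atg2a lower. Of all genes 35.6% were called with cyproheptadine, 21.9% with loxapine and 17.9% with pizotifen, against the same vehicle samples. The share called with each of them was not computed, so the count of 7 is not read as particular to the members. Gabarapl1 with loxapine (0.18) and with pizotifen (0.19) and Atg14 with loxapine (-0.16) lost their call with any 1 of the 6 compared libraries left out, Ulk2 with pizotifen (-0.17) without 4 of them in turn, and Pik3c3 without 2 with cyproheptadine, 2 with loxapine and 1 with pizotifen. Against the slot references described below, Pik3c3, Atg14 and Atg2a were called for neither pizotifen nor loxapine, with Atg14 at -0.11 and -0.04. Among mesenchymal markers 4 of 5 were lower with Group A, from Pdgfrb at -0.26 to Col3a1 at -0.80, and 0 of 4 progenitor markers were called by limma, with 0 at an unadjusted p under 0.05. Ptprc (-0.42), Map2 (-0.42) and Foxp1 (-0.16) were lower, and Csf1r (0.21) and Tubb3 (0.26) were higher. The part of these markers in the members' changes was not tested.

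With Group B, 17 members differed, against 41% of all genes tested. In it 9 were higher and 8 lower, where 19.8% and 21.2% of all genes were. The median difference was 0.00427 over members and -0.00409 over all genes. With Group B Sqstm1, Gabarapl1, Atg3, Atg5, Atg10 and Atg12 were higher, and Ulk1, Atg2a and most of the nucleation and membrane supply genes that moved were lower.

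Sqstm1 log2 values were 14.09, 13.72 and 13.88 with DKI and 13.77, 13.44 and 13.74 with meclizine. The vehicle samples, at 12.75, 12.69 and 12.77, were all lower, and no sample of another condition reached the lowest Group B value. The Group B difference was 1.04 (SE 0.0798, 95% interval 0.88 to 1.20, limma adjusted p = 3.65e-13), a 2.05-fold level. By compound it was 1.16 for DKI (limma adjusted p = 9.76e-13) and 0.91 for meclizine (limma adjusted p = 9.04e-10).

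Gabarapl1 log2 values were 10.93, 10.72 and 10.78 with DKI and 10.62, 10.55 and 10.68 with meclizine, all above the highest vehicle value of 10.24. The difference was 0.51 (SE 0.0577, limma adjusted p = 4.21e-09), 1.42-fold. Atg12 was at 9.11, 8.91 and 8.90 with DKI and 8.89, 8.77 and 8.77 with meclizine. These lay above the vehicle samples at 8.60, 8.63 and 8.66, with a difference of 0.26 (SE 0.0516, limma adjusted p = 7.18e-05). Map1lc3b, in contrast, was at 10.86 to 11.02 (median 10.91) and overlapped the vehicle samples, and its difference of 0.03 had a 95% interval of -0.07 to 0.12.

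By role, Group B moved 1 of 5 initiation genes, Ulk1, which was lower (-0.25, limma adjusted p = 1.56e-06) with values of 9.03 to 9.21 (median 9.16). In nucleation 4 of 6 moved, with Becn1 higher (0.14) and Pik3c3 (-0.14), Pik3r4 (-0.18) and Uvrag (-0.11) lower. In membrane supply 4 of 5 moved, with Wipi2 higher (0.24) and Wipi1 (-0.26), Atg2a (-0.24) and Atg9a (-0.15) lower. The Atg2a samples, at 9.27 to 9.40 (median 9.38), were all below vehicle. In conjugation 4 of 10 were higher and none lower, namely Atg3 (0.20), Atg5 (0.24), Atg10 (0.26) and Atg12. Atg10 joins ATG12 to ATG5, lies on chromosome 13 at 90935356 to 91223968 on the minus strand with Gm17450 on the other, and had values of 5.75 to 6.03 (median 5.93) against 5.60, 5.58 and 5.75, the groups meeting at 5.75. Of the ATG8 genes only Gabarapl1 was called. Among receptors Optn (0.20) was higher and Calcoco1 (-0.15) lower beside Sqstm1.

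In Group B 12 calls were kept without each of 9 libraries. Without vehicle replicate 1 the calls of Pik3c3 (-0.10), Pik3r4 (-0.12), Uvrag (-0.11), Atg9a (-0.11) and Calcoco1 (-0.12) were lost. Uvrag also lost its call without vehicle replicate 3 (-0.10). Atg9a also lost it without vehicle replicate 3 (-0.15), meclizine replicate 1 (-0.13) or 3 (-0.13), or DKI replicate 2 or 3 (-0.14). Calcoco1 lost it without vehicle replicate 3 (-0.13), DKI replicate 1 or 2 (-0.14) or meclizine replicate 2 (-0.12), and with no minimum level. With only the compared samples in the fit the calls of Pik3c3, Uvrag and Atg9a were lost. Called in the same direction for both compounds were 12 members, with Becn1, Wipi2, Atg3, Atg5, Atg10, Atg12, Gabarapl1 and Sqstm1 higher and Ulk1, Pik3r4, Wipi1 and Atg2a lower. Of all genes 42.3% were called with DKI and 26.8% with meclizine, against the same vehicle samples. The share called with both was not computed, so the count of 12 is not read as particular to the members. With meclizine alone, the calls of Becn1, Pik3r4, Atg2a, Atg3, Atg5, Atg10 and Atg12 were each lost without some library. With DKI Pik3r4 moved from -0.16 to -0.10 without vehicle replicate 1 and lost its call, as did Becn1 in 5 of 6 leave-outs and Atg3 in 1. Against slot references, available for meclizine only, Pik3r4, Atg2a, Atg3, Atg5 and Atg10 were not called and the other 7 were. Mesenchymal markers fell for 4 of 5 tested, from Pdgfrb at -0.36 to Col3a1 at -1.01, and the progenitor marker Vim fell by 0.36. Foxp1 (-0.21) and Aldh1l1 (-0.14) were lower and Tubb3 (0.45) was higher. The part of these markers in the members' changes was not tested.

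**Figure D2:**
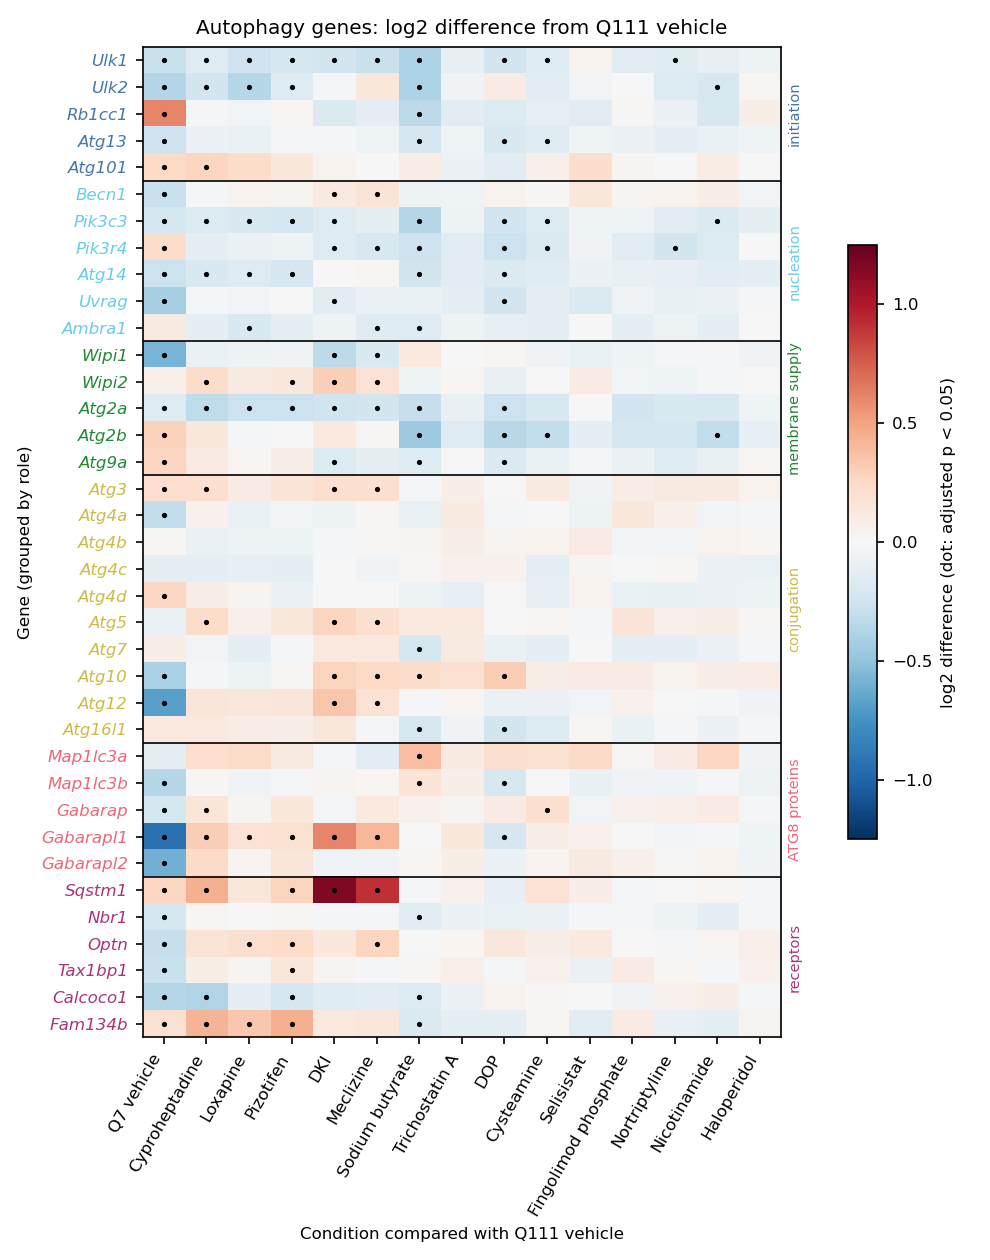
Log2 difference from the STHdhQ111 vehicle control for 37 members (grouped by role) in STHdhQ7 vehicle cells and with each of 14 compounds, with a dot where the limma adjusted p was under 0.05. Sqstm1 is highest with DKI at 1.16 and meclizine at 0.91, and Ulk1 and Atg2a are lower with all 5 compounds of Groups A and B against this control.

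Group A was then compared directly with Group B, which does not use the vehicle samples. Of the members 19 differed, against 41.3% of all genes tested. In Group A 10 were higher and 9 lower, where 19.9% and 21.4% of all genes were. The median difference was -0.024 over members and -0.00196 over all genes. Sqstm1, Gabarapl1, Ulk2 and Atg10 were lower in Group A than in Group B, while Fam134b, Map1lc3a, Atg9a and Wipi1 were higher.

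The highest Group A value of Sqstm1 was 13.27 and the lowest Group B value was 13.44, so the groups did not overlap. The difference was -0.75 (SE 0.0593, 95% interval -0.87 to -0.63, limma adjusted p = 6.73e-13). Ulk2, a kinase related to Ulk1 on chromosome 11 at 61775649 to 61855073, minus strand, had values of 8.78 to 9.03 (median 8.90) in Group A and 9.06 to 9.32 (median 9.22) in Group B. Vehicle samples, at 9.23, 9.16 and 9.04, overlapped Group B but not Group A. The groups differed by -0.31 (SE 0.0378, limma adjusted p = 1.54e-08). Atg10 values were 5.44 to 5.75 (median 5.67) in Group A and 5.75 to 6.03 (median 5.93) in Group B, just short of overlap, with a difference of -0.29 (SE 0.0540, limma adjusted p = 3.36e-05). Gabarapl1 values overlapped at the edge, with 10.56 as the highest in Group A and 10.55 as the lowest in Group B, and differed by -0.28 (SE 0.0429, limma adjusted p = 1.04e-06). Map1lc3b, at -0.04 (95% interval -0.11 to 0.03), did not differ detectably.

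By role, 3 of 5 initiation genes differed, with Rb1cc1 (0.14) and Atg101 (0.19) higher in Group A. In nucleation 4 of 6 differed, with Becn1 (-0.12) and Atg14 (-0.19) lower and Pik3r4 (0.10) and Uvrag (0.09) higher. In membrane supply Wipi1 (0.20) and Atg9a (0.21) were higher and Wipi2 (-0.08) lower. In conjugation Atg7 (-0.18) and Atg12 (-0.12) were lower beside Atg10, and none was higher. Among ATG8 genes Map1lc3a (0.27) and Gabarapl2 (0.18) were higher, and among receptors Fam134b (0.28) and Tax1bp1 (0.08) were. Of these 19 calls 12 were kept without each of 15 libraries.

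The other 7 of these calls were each lost without some library, and some also under another model. Tax1bp1 lost its call with no minimum level, with collection time added, with centred samples, with no variance trend and with only the compared samples. Pik3r4, Gabarapl2 and Wipi2 lost theirs with only the compared samples. Atg12 lost its call without DKI replicate 1 (-0.08) or meclizine replicate 1 (-0.10), and Atg101 without DKI replicate 2 (0.17) or meclizine replicate 3 (0.17). Gabarapl2 lost it without cyproheptadine replicate 1 (0.14), DKI replicate 2 (0.16) or 3 (0.14), or meclizine replicate 3 (0.15). Rb1cc1 lost it without cyproheptadine replicate 1 (0.12) or 2 (0.13), loxapine replicate 1 (0.13), DKI replicate 3 (0.11), or meclizine replicate 1 or 3 (0.14). Wipi2 lost it without cyproheptadine replicate 1 (-0.07), DKI replicate 1 (-0.05) or 3 (-0.08), meclizine replicate 1 (-0.06) or 2 (-0.08), or pizotifen replicate 3 (-0.07). Pik3r4 lost it without cyproheptadine replicate 2 or 3, pizotifen replicate 1 or 2, loxapine replicate 2 or 3, DKI replicate 2 or 3, or meclizine replicate 3, with values of 0.07 to 0.10. Tax1bp1 lost it without cyproheptadine replicate 1, pizotifen replicate 1 or 2, loxapine replicate 1 or 3, meclizine replicate 1 or 3, or DKI replicate 3, with values of 0.05 to 0.08. Mesenchymal markers were higher in Group A for 3 of 5 tested, Col1a1 by 0.43, Vim was higher by 0.27 and Csf1r by 0.13, and Tubb3 was lower (-0.20). Their part in the result was not tested.

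**Figure D3:**
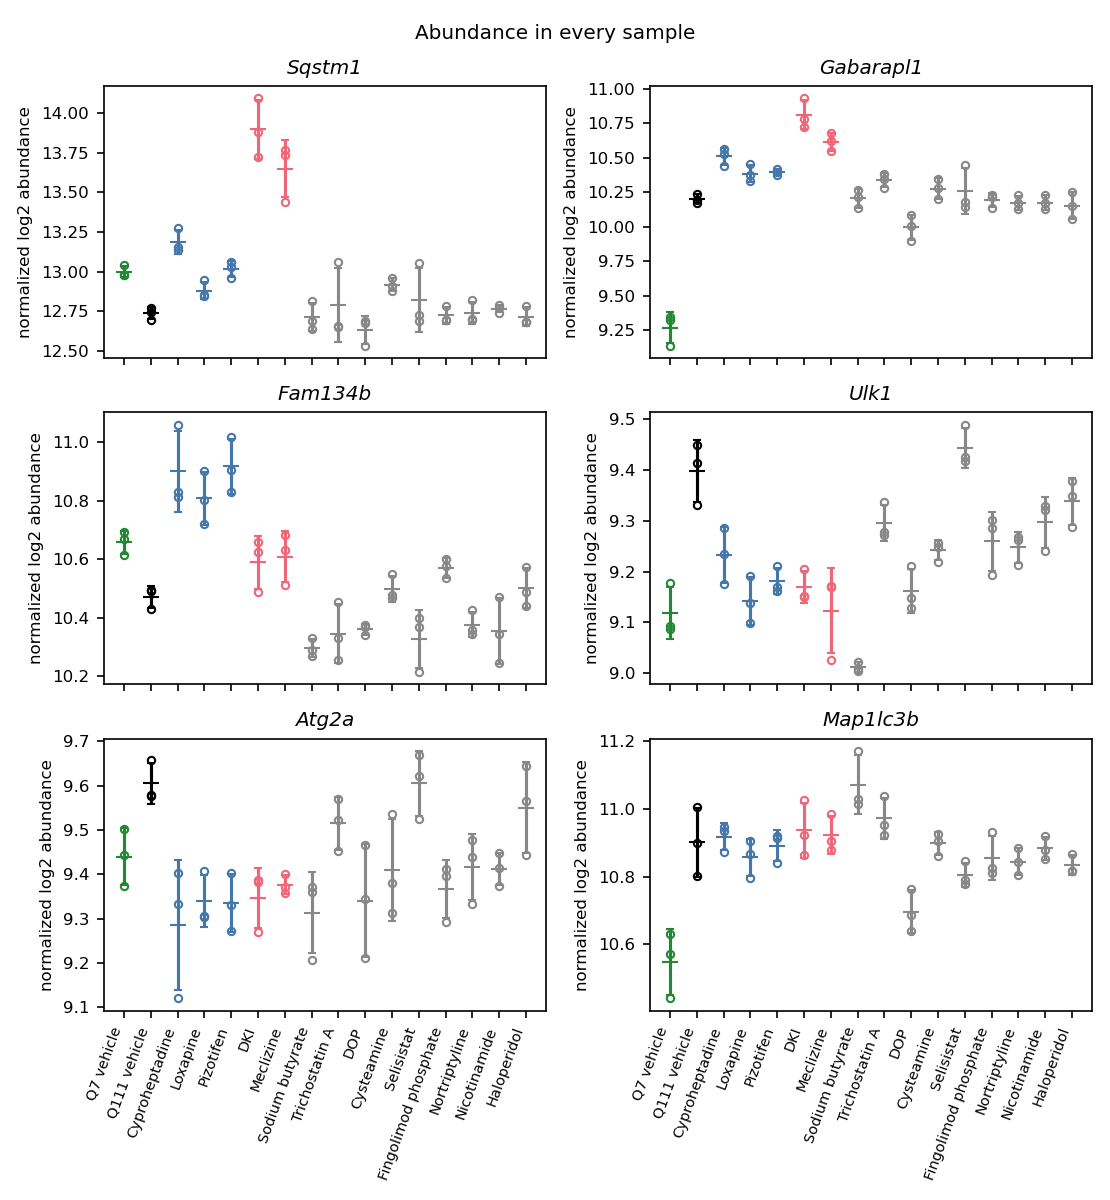
Log2 value in each of 48 samples for Sqstm1, Gabarapl1, Fam134b, Ulk1, Atg2a and Map1lc3b across 16 conditions, with the mean and SD of the 3 samples of each condition; STHdhQ7 is green, STHdhQ111 vehicle black, Group A blue, Group B red and other compounds grey. All Group B samples of Sqstm1 are at 13.44 or above, and all Group A samples of Fam134b are at 10.72 or above.

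Samples carry 3 collection days and 3 collection times in the labels, which do not say what the times were, and most compounds did not share the slots of the vehicle control. Cyproheptadine and DKI were collected in the same day and time slots as each other, as were pizotifen and meclizine, so each pair sets a Group A against a Group B compound with the slot held equal. Cyproheptadine differed from DKI for 14 members, 5 higher and 9 lower, against 28.6% of all genes tested, with a median of -0.0111 (all genes -0.00763). This count was 8 when only the compared samples entered the fit. Pizotifen differed from meclizine for 10 members, 4 higher and 6 lower, against 16.2% of all genes, with a median of -0.0325 (all genes -0.00345). The doses of pizotifen and meclizine were 5 µM and 10 µM. The pairs share no sample, and 9 members were called in both in the same direction, while 0 were called in opposite directions by limma. Of all genes 12.2% were called in both in the same direction and 0.0224% in opposite directions.

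Those 9 were Wipi1, Atg9a and Fam134b, higher with the Group A compound, and Ulk2, Becn1, Atg14, Atg10, Gabarapl1 and Sqstm1, lower with it. Sqstm1 differed by -0.71 (SE 0.0918, 95% interval -0.90 to -0.53, limma adjusted p = 1.34e-07) between cyproheptadine and DKI and by -0.63 (95% interval -0.82 to -0.45) between pizotifen and meclizine. Fam134b differed by 0.31 in both pairs (limma adjusted p = 2.72e-04 and 7.25e-04). Gabarapl1 differed by -0.30 and -0.22 (limma adjusted p = 5.41e-04 and 0.0177). Called only for cyproheptadine against DKI were Atg7 (-0.15), Atg12 (-0.20), Gabarap (0.18), Gabarapl2 (0.28) and Calcoco1 (-0.22), and called only for pizotifen against meclizine was Tax1bp1 (0.16); whether the pairs differ in these members was not tested. Gabarapl2 lost its call without cyproheptadine replicate 1 (0.14) or 3 (0.29) or DKI replicate 2 (0.23) or 3 (0.19), and Gabarap without cyproheptadine replicate 1 (0.13) or 3 (0.17) or DKI replicate 3 (0.11). Atg12 lost it without DKI replicate 1 (-0.13) or cyproheptadine replicate 2 (-0.16), and Atg7 with any 1 of the 6 libraries left out. With each library left out, 6 of the 14 calls in the cyproheptadine pair were kept (Wipi1, Atg9a, Gabarapl1, Sqstm1, Calcoco1 and Fam134b). In the pizotifen pair 4 of 10 were kept (Ulk2, Atg14, Sqstm1 and Fam134b), Wipi1 lost its call with any 1 of the 6 left out, and the count fell to 4 without pizotifen replicate 1, meclizine replicate 1 or meclizine replicate 3.

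**Figure D4:**
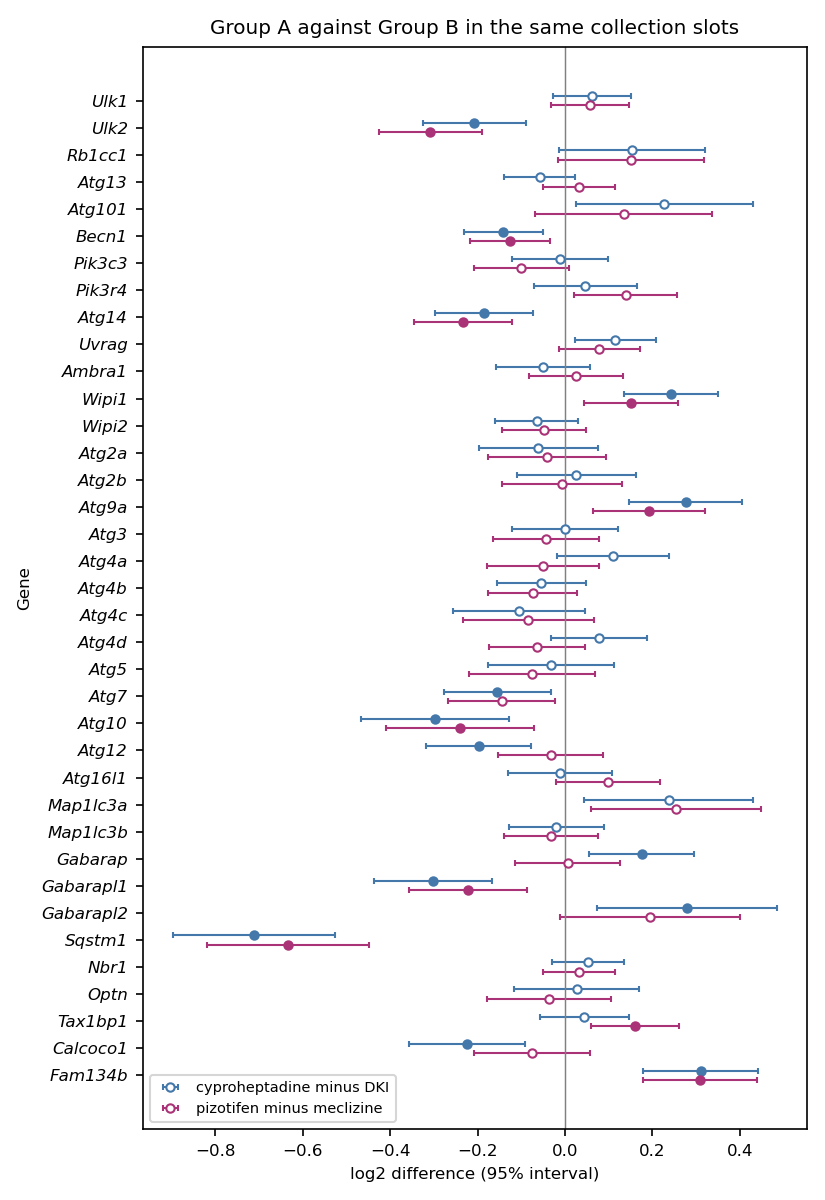
Log2 difference per member between cyproheptadine and DKI and between pizotifen and meclizine, pairs collected in the same slots, with 95% intervals and open points where the limma adjusted p was 0.05 or more. Sqstm1 lies lowest in both, at -0.71 and -0.63, and Fam134b is at 0.31 in both.

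Cyproheptadine and loxapine are tricyclic compounds that differ in structure, a dibenzocycloheptene bearing a methylpiperidine against a dibenzoxazepine bearing a methylpiperazine, and both were given at 10 µM for 24 h. They were collected in different day and time slots, so slot and compound cannot be told apart between them. They differed for 2 of 37 members, against 10.5% of all genes tested. An unadjusted limma p under 0.05 was found for 8 members and for 3225 of the 13409 genes. Sqstm1 was higher with cyproheptadine by 0.31 (SE 0.0928, 95% interval 0.12 to 0.49, limma adjusted p = 0.0284), and the samples did not overlap, with 13.14 as the lowest against 12.95 as the highest. Calcoco1 was lower (-0.26, SE 0.0664, 95% interval -0.39 to -0.12, limma adjusted p = 0.00938), with values of 10.05, 10.15 and 10.10 against 10.36, 10.38 and 10.33. Without cyproheptadine replicate 3 (0.26), loxapine replicate 2 (0.29) or loxapine replicate 3 (0.28) the Sqstm1 call was lost, and without cyproheptadine replicate 1 (-0.23) the Calcoco1 call was. The number called fell to 1 without loxapine replicate 2 or 3.

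For the other 35 members no difference was detected between cyproheptadine and loxapine, which does not show that they act alike. The 95% interval of the difference was -0.04 to 0.22 for Fam134b, -0.01 to 0.26 for Gabarapl1, -0.05 to 0.17 for Map1lc3b and -0.19 to 0.09 for Atg2a. It was 0.02 to 0.32 for Atg5, 0.03 to 0.31 for Atg2b and 0.03 to 0.22 for Wipi2, which were positive throughout but did not pass after adjustment. The median difference was 0.045 over members and 0.0031 over all genes. Pizotifen, which has the methylpiperidine of cyproheptadine on a thiophene-fused ring system, was given at 5 µM, so its values are only set beside the others. For Calcoco1 its samples were at 10.27, 10.30 and 10.23, and for Sqstm1 at 13.06, 13.03 and 12.96.

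Each compound was also compared with the STHdhQ111 vehicle samples, which all of these comparisons share. Cyproheptadine changed 14 members (8 higher, 6 lower), against 35.6% of all genes, with a median of 0.0238 (all genes -0.000684), and 6 when only the compared samples entered the fit. Loxapine changed 9 (3 higher, 6 lower), against 21.9%, with a median of -0.0231 (all genes 0.00478). Pizotifen changed 12 (6 higher, 6 lower), against 17.9%, with a median of 0.0121 (all genes -0.00466). Kept with each library left out were Ulk1, Atg2a and Fam134b with each of these 3 compounds, besides Ulk2 with cyproheptadine and loxapine and Atg14 with cyproheptadine and pizotifen. Cyproheptadine also kept Wipi2 (0.23), Gabarapl1 (0.30), Sqstm1 (0.45) and Calcoco1 (-0.38). The loxapine count fell to 5 without vehicle replicate 1, vehicle replicate 2 or loxapine replicate 2, and the pizotifen count fell to 5 without vehicle replicate 1 or pizotifen replicate 1 and to 7 without vehicle replicate 2 or pizotifen replicate 3.

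DKI changed 15 members (8 higher, 7 lower), against 42.3% of all genes, with a median of -0.00936 (all genes -0.00577), and 6 when only the compared samples entered the fit. Meclizine changed 14 (9 higher, 5 lower), against 26.8%, with a median of -0.00677 (all genes -0.00373). With DKI 10 calls were kept without each library, among them Wipi1 (-0.32), Wipi2 (0.30), Atg5 (0.27), Atg10 (0.28) and Atg12 (0.35). With meclizine 6 were, namely Ulk1 (-0.28), Wipi1 (-0.20), Wipi2 (0.18), Gabarapl1 (0.41), Sqstm1 (0.91) and Optn (0.27). The meclizine count fell to 9 without vehicle replicate 1 or meclizine replicate 1.

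Sodium butyrate, a histone deacetylase inhibitor, changed 19 members, against 37.5% of all genes, and moved most of them down. Here 16 were lower, where 17.8% of all genes were, and 3 were higher, where 19.6% were. The median was -0.0646 over members and 0.0157 over all genes. With only the compared samples in the fit 11 members were called. By role, 4 of 5 initiation genes, 4 of 6 nucleation genes and 3 of 5 membrane supply genes were lower and none was higher than with vehicle. Against the compounds of its own slots, described below, this was 4 initiation genes (Ulk1, Ulk2, Rb1cc1 and Atg13), 2 nucleation genes (Becn1 and Pik3c3) and 1 membrane supply gene (Atg2b), and Wipi1 was higher (0.15, limma adjusted p = 0.0146). Ulk1 samples were at 9.02, 9.00 and 9.01 against 9.45, 9.41 and 9.33 with vehicle, the lowest condition for this gene, with a difference of -0.39 (limma adjusted p = 1.51e-08). Atg2b was at 7.85, 7.99 and 8.07 against 8.54, 8.37 and 8.36, and fell by 0.45 (limma adjusted p = 1.90e-06). Ulk2 (-0.39), Rb1cc1 (-0.32), Atg13 (-0.21), Pik3c3 (-0.36), Pik3r4 (-0.26), Atg14 (-0.23), Ambra1 (-0.16), Atg2a (-0.29) and Atg9a (-0.16) were also lower.

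In conjugation Atg7 (-0.22) and Atg16l1 (-0.20) were lower with sodium butyrate and Atg10 (0.22) higher. Against the compounds of its own slots Atg16l1 kept its call (-0.15), Atg7 (-0.12) and Atg10 (0.16) did not, and Atg3 was lower (-0.13). Both LC3 genes were higher than with vehicle. Map1lc3a was at 9.30, 9.47 and 9.27 against 8.85, 8.86 and 9.16, a difference of 0.39 (limma adjusted p = 0.00147), and Map1lc3b was at 11.01, 11.17 and 11.03 against 10.80, 10.90 and 11.00, a difference of 0.17 (limma adjusted p = 0.0119). All butyrate samples of both genes were above all vehicle samples. Against the compounds of its own slots Map1lc3b was called (0.21) and Map1lc3a, also at 0.21, was not (limma adjusted p = 0.0520). Among receptors Nbr1 (-0.14), Calcoco1 (-0.17) and Fam134b (-0.18) were lower, of which only Calcoco1 (-0.24) was called against the compounds of its own slots, with Nbr1 at -0.06 and Fam134b at -0.07. With each library left out 12 of the 19 calls were kept, and that of Map1lc3b was not. Calcoco1 lost its call and moved to -0.10 without sodium butyrate replicate 1. Of the markers, Nes (1.29) was higher with sodium butyrate as 1 of 4 tested progenitor markers, and Dcn (0.59) and Col1a1 (0.35) as 2 of 5 mesenchymal markers. Ppp1r1b (0.32), Tubb3 (0.25), S100b (0.11) and Csf1r (0.13) were higher too, and the part of these markers in the result was not tested. Trichostatin A, also a histone deacetylase inhibitor but given at 10 nM, changed 0 members by limma, against 13.1% of all genes. With it 6 members had an unadjusted limma p under 0.05, as did 3598 of the 13409 genes.

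DOP, a vitamin B6 antagonist, changed 13 members, against 20.1% of all genes. In it 12 were lower, where 11.2% of all genes were, and 1 was higher, where 8.93% were, and the median was -0.0875 over members and 0.0045 over all genes. The higher gene was Atg10 (0.31). Gabarapl1 was at 10.08, 9.90 and 10.01, below all vehicle samples, and fell by 0.21 (limma adjusted p = 0.0226), and Map1lc3b, at 10.76, 10.64 and 10.69, fell by 0.20 (limma adjusted p = 0.00553). In initiation and nucleation Ulk1 (-0.24), Atg13 (-0.19), Pik3c3 (-0.24), Pik3r4 (-0.27), Atg14 (-0.18) and Uvrag (-0.24) were lower. In membrane supply and conjugation Atg2a (-0.26), Atg2b (-0.35), Atg9a (-0.18) and Atg16l1 (-0.23) were, and 0 of 6 receptors were called by limma, with 2 at an unadjusted p under 0.05. Over all genes 4316 of 13409 had an unadjusted limma p under 0.05 with DOP. Against the compounds of its own slots, Uvrag (-0.16), Atg16l1 (-0.18), Map1lc3b and Gabarapl1 were still lower and Atg10 (0.24) higher, while the other initiation, nucleation and membrane supply genes named here were not called and Ulk2 was higher (0.29, limma adjusted p = 2.50e-04). Of the calls against vehicle 7 were kept without each library, those of Gabarapl1, Map1lc3b and Atg10 not among them, and the count fell to 7 without DOP replicate 2, where Atg9a moved to -0.09.

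Cysteamine changed 6 members, against 7.83% of all genes, with Gabarap higher (0.20) and Ulk1 (-0.16), Atg13 (-0.15), Pik3c3 (-0.17), Pik3r4 (-0.18) and Atg2b (-0.30) lower, and a median of -0.0451 (all genes 0.00347). Nicotinamide lowered 3, against 10.4% of all genes, namely Ulk2 (-0.20), Pik3c3 (-0.18) and Atg2b (-0.30), with a median of -0.0319 (all genes 0.00999). Nortriptyline lowered 2, Ulk1 (-0.15) and Pik3r4 (-0.22), against 3.83% of all genes, with a median of -0.0366 (all genes 0.0111). None of these calls was kept without every single library, and Pik3r4 with cysteamine moved to -0.12 without vehicle replicate 1. The cysteamine count was 0 without vehicle replicate 1 or cysteamine replicate 3 and 2 without vehicle replicate 2 or cysteamine replicate 1. The nicotinamide count was 0 without vehicle replicate 1, 1 without nicotinamide replicate 2, 5 without nicotinamide replicate 1 and 7 without vehicle replicate 3, and it was 5 with a minimum of 6 or with no day term. The nortriptyline count was 0 without vehicle replicate 1 or nortriptyline replicate 1 or 3, 1 without vehicle replicate 2 or nortriptyline replicate 2, and 4 without vehicle replicate 3. It was 1 with collection time added and 0 by limma with only the compared samples.

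Fingolimod phosphate changed 0 members by limma, against 0.0597% of all genes. Haloperidol changed 0 by limma, against 0% of all genes. Selisistat, a sirtuin inhibitor collected in the same slots as the vehicle, changed 0 by limma, against 0.515% of all genes. An unadjusted limma p was under 0.05 for 8 members and 1404 of the 13409 genes with fingolimod phosphate. It was for 2 members and 397 genes with haloperidol, and for 6 members and 2307 genes with selisistat. The selisistat count of calls rose to 4 without selisistat replicate 3, and was 1 with no minimum level, with no day term or with centred samples. For fingolimod phosphate the count was 1 when only the compared samples entered the fit. Sqstm1 was at 12.72, 13.05 and 12.69 in the selisistat samples and at 12.65, 13.06 and 12.65 in the trichostatin A samples. For this gene replicate 2 thus stood apart in both. As a whole library it stood apart with selisistat but not with trichostatin A. The root mean square deviations of replicates 1 to 3 from their condition were 0.137, 0.217 and 0.156 with selisistat. With trichostatin A they were 0.124, 0.13 and 0.109.

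To hold the slot equal where the vehicle did not, compounds were also set against the nanomolar compounds of their own slots, fingolimod phosphate with haloperidol or nicotinamide with nortriptyline. These references are treated cells, not vehicle. A compound's own samples enter both its comparison with vehicle and its comparison with these references, so shared calls are not independent. The share of all genes called against both was not computed. Pizotifen then changed 9 members (6 higher, 3 lower; 17.3% of all genes), of which 8 were called in the same direction against vehicle. Meclizine changed 12 (10 higher, 2 lower; 28.8% of all genes), with 8 shared, including Sqstm1 at 0.93 and Gabarapl1 at 0.44. Loxapine changed 11 (8 higher, 3 lower; 22.8% of all genes), with 5 shared, including Fam134b at 0.44 and Gabarapl1 at 0.21. Fam134b was higher by 0.38 and Sqstm1 by 0.30 with pizotifen.

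Atg2a, lower with pizotifen, meclizine and loxapine against vehicle, was not called for any of them against these references. Sodium butyrate changed 12 members (2 higher, 10 lower; 30.8% of all genes), with 9 shared, including Ulk1 at -0.26, Atg2b at -0.19 and Map1lc3b at 0.21. DOP changed 6 (2 higher, 4 lower; 10.6% of all genes), with 5 shared, Map1lc3b at -0.17 and Gabarapl1 at -0.18 among them. Trichostatin A changed 2, Atg7 higher (0.18) and Fam134b lower (-0.19), against 14.4% of all genes. Cysteamine changed 0 by limma, against 0.119% of all genes, and 4 members had an unadjusted p under 0.05, a count not made over all genes. The reference pairs themselves differed for 4 members (10.9% of all genes), in a comparison chosen after seeing the data. Ulk2 (0.20, limma adjusted p = 0.00328), Rb1cc1 (0.18), Pik3r4 (0.12) and Fam134b (0.17, limma adjusted p = 0.0142) were higher with fingolimod phosphate and haloperidol than with nicotinamide and nortriptyline. Slot and compound cannot be told apart there.

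Across the 15 STHdhQ111 conditions the condition means of Sqstm1 spanned the widest range of any member, 1.27 on the log2 scale, from 12.63 ± 0.09 (SD, n = 3) with DOP to 13.90 ± 0.19 with DKI. Below DKI came meclizine at 13.65 ± 0.18, cyproheptadine at 13.19 ± 0.07, pizotifen at 13.02 ± 0.05, cysteamine at 12.92 ± 0.04 and loxapine at 12.88 ± 0.06. Vehicle was at 12.74 ± 0.04, and the other compounds were at 12.63 to 12.82. Among these the DOP samples, at 12.69, 12.53 and 12.67, lay below all vehicle samples, by little for the highest, and the difference was not called. The samples of DKI and meclizine overlapped, while cyproheptadine was separate from both. Gabarapl1 had the next widest range, 0.82, from 10.00 ± 0.09 with DOP to 10.81 ± 0.11 with DKI, with meclizine at 10.62 ± 0.07 and cyproheptadine at 10.51 ± 0.06. Fam134b spanned 0.62, with pizotifen at 10.92 ± 0.09, cyproheptadine at 10.90 ± 0.14 and loxapine at 10.81 ± 0.09, which did not differ beyond their spread. The narrowest range was that of Nbr1, at 0.17.

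Counted over the 14 compounds, Ulk1 was lower with 9, Pik3c3 with 8, Atg2a with 7 and Pik3r4 with 6, and none of these was higher with any. Against the compounds of their own slots, for the 7 compounds that have such a reference, Ulk1 was lower with 4 (pizotifen, meclizine, loxapine and sodium butyrate), Pik3c3 with sodium butyrate alone, and Atg2a and Pik3r4 with none by limma. Against vehicle again, Gabarapl1 was higher with 5 compounds and lower with 1, Sqstm1 higher with 4, and Fam134b higher with 3 and lower with 1. Among all 5 compounds of Groups A and B, Gabarapl1 was higher and Ulk1 and Atg2a were lower with each. Of these, Gabarapl1 and Ulk1 were also called for pizotifen, loxapine and meclizine against their slot references, where Atg2a, at -0.12, -0.07 and -0.08, was not. The Gabarapl1 calls against vehicle for loxapine and pizotifen, however, were each lost with any 1 of the 6 libraries left out. Called for at least 1 compound were 32 members, and 5 were called for none by limma: the proteases Atg4a, Atg4b, Atg4c and Atg4d, and Gabarapl2. The shares of all genes called for at least 1 compound, or for all 5 compounds of Groups A and B, were not computed. Whether the members stand out in these counts is therefore unknown. Since every one of these calls uses the same 3 vehicle samples, the counts are not independent of each other.

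Other genes of the pathway were read from lists. The shares of all genes called, beside which the counts can be read, were 55.8% between the lines, 32.8% with Group A, 41% with Group B and 41.3% between the groups. Of 15 fusion and tethering genes, 9 (60%) differed between the lines (2 higher, 7 lower), with the SNARE Vamp8 at -0.55 and Vps16 at 0.19. With Group A 6 (40%) differed (Vps18 0.17, Rubcn -0.24), with Group B 2 (13.3%; Vps11 0.13, Rubcn -0.27) and between the groups 5 (33.3%; Vamp8 0.16, Vps39 -0.17). Of 16 nutrient and energy kinase genes, 12 (75%) differed between the lines, with the Rag GTPase Rragd at 0.71 and the AMPK subunit Prkaa1 at -0.24. With Group A 8 (50%) differed (Rragd 0.39, Tsc2 -0.30), with Group B 10 (62.5%; Rragd 0.85, Prkaa1 -0.22) and between the groups 7 (43.8%; Prkag1 0.24, Rragd -0.47). Rragd thus had the largest increase of its list in STHdhQ7 cells and with Groups A and B.

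Of 9 accessory early factors, 6 (66.7%) differed between the lines, with Atg9b at 0.59 and Sh3glb1 at -0.58. With Group A 5 (55.6%) differed (Tmem41b 0.50, Zfyve1 -0.18), with Group B 3 (33.3%; Wdr45 0.17, Zfyve1 -0.23) and between the groups 6 (66.7%; Tmem41b 0.50, Wdr45 -0.10). Of 13 other cargo receptors, 7 (53.8%) differed between the lines, with the glycogen receptor Stbd1 at 0.40 and the ferritin receptor Ncoa4 at -0.86. With Group A 6 (46.2%) differed (Bnip3 0.55, Wdfy3 -0.34), with Group B 5 (38.5%; Stbd1 1.62, Wdfy3 -0.37) and between the groups 6 (46.2%; Bnip3 0.58, Stbd1 -1.20). The mitochondrial receptor Bnip3 and Stbd1 thus separated the groups in opposite directions.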

How the data were processed

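RNA-Seq values of 48 samples in 16 conditions were used as deposited, normalized abundances on a log2 scale per gene. The authors prepared polyA libraries with a directional kit, trimmed reads with Trimmomatic 0.36, quantified them with RSEM on the GRCm38.p5 transcriptome and, per their methods, tested each compound with DESeq2 with the collection day in the model. The transformation behind the log2 values is not given in the sources used here, and it may shrink the differences of low genes. No counts were used, so the depth per sample is unknown and no interval for counting error is given. Values ran from -2.343 to 18.62, and samples of a condition correlated at 0.9964 to 0.9994.

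The genes fitted were those with a symbol (18178 of 27281) whose mean over samples reached 1 on the log2 scale (13409), in R 4.3.3 with limma 3.58.1. A count model was not used because no counts were. All 48 samples entered a single fit with terms for condition and collection day and a trend of the variance on abundance, leaving 30 residual degrees of freedom. Tests were two-sided with Benjamini-Hochberg adjustment within each comparison. Figures were drawn in Python 3.11.15 with matplotlib 3.10.9. The fit was also run on simulated data with independent noise and no effect of day or slot, which leaves those effects untested. Positions and overlaps come from the GENCODE annotation of GRCm38, and promoters from RefSeq.

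Values in every sample, or the lowest, median and highest of groups over 5 samples, were given for the 3 called members with the largest difference in each of the 4 main comparisons and for Map1lc3b and Sqstm1; other members were given by difference, count and range. Members shown in more detail outside this rule (Ulk1, Wipi1, Gabarapl2, Calcoco1, Atg2b and Map1lc3a) were chosen after their values were seen. Pathway lists (fusion and tethering, nutrient and energy kinases, accessory early factors, other cargo receptors) and marker lists (neural progenitor, striatal neuron, neuron, astrocyte, microglia, mesenchymal) were read by counts, and a further marker list is not reported here. The members and lists were chosen with earlier results of these data known.

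The replicate number equals the collection day in the labels, except replicate 1 of cyproheptadine and DKI, labelled day 3. The day therefore pairs samples by label. The deviations of samples from their condition means had a mean correlation of -0.055 within a day and 0.0279 across days. Of 120 pairs of conditions, 1 had every same-number correlation above 0.1. Alternatives tried were no minimum or a minimum of 6, a model without the day, a block for the replicate number, collection time as a further term, centring, no variance trend, fitting only the compared samples, slot-matched references, a call for each compound of a group, and leaving out each library.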

Additional observations from a re-analysis of the deposited data

How the results depend on the processing

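Of 21 counts of called members, recomputed under 177 alternatives other than leaving out a library, 160 stayed within 1.5 times the reported count. Fitting only the compared samples, which lowers the residual degrees of freedom, gave 6 for cyproheptadine, 6 for DKI, 8 for cyproheptadine against DKI, 11 for sodium butyrate, 0 for nortriptyline and 1 for fingolimod phosphate. Slot-matched references gave 6 for DOP, 0 for cysteamine, 12 for sodium butyrate and 2 for trichostatin A. Requiring a call for each compound gave 7 for Group A. Nicotinamide gave 5 with a minimum of 6 and 5 with no day term, nortriptyline 1 with collection time added, and selisistat 1 with no minimum, 1 with no day term and 1 with centring. The cause was not tested. Centring moved no sample by more than 0.0135.

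Leaving out each library in turn gave 26 to 29 members between the lines, 12 to 17 for Group A, 12 to 18 for Group B and 14 to 19 for Group A against B. The counts were 11 to 17 for cyproheptadine, 5 to 8 for loxapine, 5 to 8 for pizotifen, 11 to 16 for DKI, 9 to 15 for meclizine, 14 to 16 for sodium butyrate, 7 to 13 for DOP, 0 to 8 for cysteamine, 0 to 7 for nicotinamide, 0 to 4 for nortriptyline and 0 to 4 for selisistat. They were 10 to 12 for cyproheptadine against DKI, 4 to 9 for pizotifen against meclizine and 1 to 3 for cyproheptadine against loxapine, and 0 throughout for fingolimod phosphate, haloperidol and trichostatin A. Without selisistat replicate 2, an alternative chosen after seeing the data, the main counts were 29, 17, 17 and 19. Of 80 called member differences in the 4 main comparisons 0 reversed and 59 kept their call under every alternative fitted per member, which leaves out the slot-matched references and the call for each compound. Under the latter 7 of 15 were kept in Group A and 12 of 17 in Group B.

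With the replicate number as a block in place of the day, cyproheptadine gave 15 members in place of 14, and no count moved by more than 1.5 times. Unknown depth limits what can be said of the precision of less abundant members such as Atg10.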

Other observations

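Sodium butyrate also moved other autophagy genes, where 37.5% of all genes were called, 19.6% higher and 17.8% lower. Of the 15 fusion and tethering genes 9 fell and 0 rose by limma, with Rubcn, a negative regulator of autophagosome maturation, lowest at -0.43. Of 16 nutrient and energy kinase genes 7 were called, from Tsc1 at -0.44 to Rragd at 0.34, with 1 higher and 6 lower. Of 13 other cargo receptors 5 rose and 2 fell, from Wdfy3 at -0.56 to Stbd1 at 0.39. Of 9 accessory early factors 0 were called by limma, and 1 had an unadjusted p under 0.05, as did 6127 of the 13409 genes. These lists share the vehicle samples with the comparisons of the other compounds.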
